A study of Mus musculus with 12 samples.

Results

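The maxillary prominence of the mouse embryo was compared at embryonic day (E) 11.5 and at E10.5, a step that comes before the palatal shelves grow out. Libraries were chosen by their labels alone, 3 of E11.5 and 3 of E10.5, which makes 6 of the 12 libraries of the series, and every gene in the deposited counts was used. All 6 came from wild type C57BL/6 embryos, no treatment is named, and the whole prominence was dissected with forceps, so each library holds mesenchyme, surface epithelium, vessels, blood and any nerve tissue that came with it. RNA was selected by its poly-A tail and sequenced. The protocol speaks of 7 littermates but not of whether that number was pooled for each library or shared by a stage, and separate litters are not named, so each p-value here rests on the spread within stages over the 12 libraries fitted, which may be technical in part. In bulk tissue, fewer cells of a type and less RNA per cell cannot be told apart.

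The maxillary prominence is a swelling on each side of the embryonic mouth. Neural crest cells that migrated from the hindbrain and midbrain fill it, and a thin ectoderm covers it and sends Wnt, Fgf, Bmp and Hedgehog signals to them. Over the days studied here it grows forward, fuses with the nasal prominences into the upper lip and begins to form the upper jaw, from which the palatal shelves, the upper molars and the bones of the cheek and palate arise.

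Libraries held 30435535 to 32100104 counts in genes and detected 22633 to 25275 genes. Correlation of log2 levels over the tested genes was 0.9895 to 0.9921 among E11.5 libraries, 0.9824 to 0.9884 among E10.5 libraries and 0.9622 to 0.978 between the stages. Alignments that fell outside any annotated gene made up 2.16%, 2.30% and 2.42% in the E11.5 libraries, against 2.67%, 1.92% and 4.88% in the E10.5 libraries, where replicate 3 stood apart. Replicate 2 of E10.5 also differed from the other 5 libraries in Xist, the transcript of the inactive X chromosome of females, with a level of 0.0739 CPM against at least 209 CPM in each of the others. The sum of 4 Y-linked genes was 226.1 CPM in that library, 101.5 and 192.0 CPM in E10.5 replicates 1 and 3, and 138.3 to 183.4 CPM at E11.5. Xist and Y-linked RNA were thus both present in each of the other 5 libraries. Levels are in CPM, counts scaled to a common library size with sizes adjusted by TMM (trimmed mean of M-values), which are not corrected for transcript length and so are compared between stages, never between genes.

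At a Benjamini-Hochberg adjusted p under 0.05 in edgeR's quasi-likelihood test, 2238 of 18365 genes tested were higher at E11.5 (12.2%) and 2377 were lower (12.9%), 25.1% in all. At least 2-fold differences with the same adjusted p were found for 904 genes that rose (4.92%) and 732 that fell (3.99%). Over all genes tested, the log2 fold change, E11.5 over E10.5, had a median of -0.0387. Libraries of the stages did not overlap for 3675 of the 18365 genes with E11.5 higher and for 4113 with E11.5 lower. In each direction that is more genes than passed the test. Lack of overlap, where it is given below for a gene, is therefore common and weak evidence on its own. Without E11.5 replicate 1 the genes that fell numbered 1551, and without E11.5 replicate 2 they numbered 1486. Leaving out E10.5 replicate 3 gave 2016 that rose and 2004 that fell, and leaving out E10.5 replicate 2 gave 2016 and 2042. Genes are grouped below by lists for the pathways and cell types of the face, and the share of a list that passed the test is set beside those shares of all genes.

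**Figure D1:**
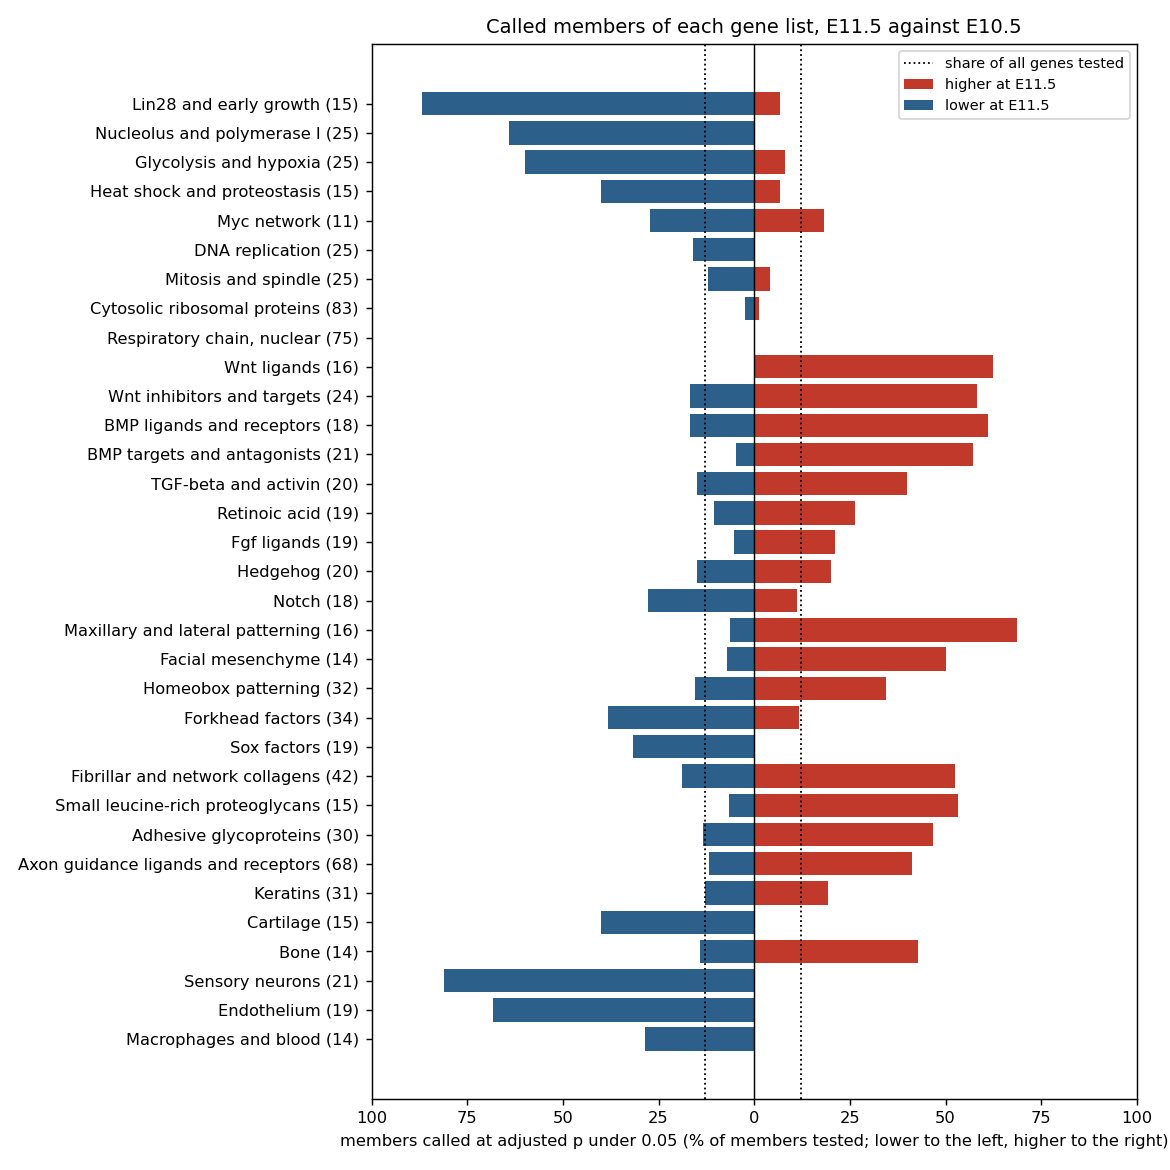
Share of the tested members of each gene list that passed the test at adjusted p under 0.05, as percent of the members tested (number in brackets), with genes higher at E11.5 to the right and genes lower at E11.5 to the left; dotted lines mark the shares of all 18365 genes, 12.2% higher and 12.9% lower. Bars for Wnt ligands, BMP genes, maxillary patterning, collagens and proteoglycans reach 52.4% to 68.8% to the right, and bars for Lin28 and early growth, sensory neurons, endothelium, the nucleolus and glycolysis reach 60.0% to 86.7% to the left.

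A set of RNA-binding and growth genes of the early embryo was lower at E11.5. Of the 15 tested members of a list built around Lin28 and known let-7 targets (5 further members did not pass the filter on low counts), 13 fell, or 86.7%, and Igdcc4 alone rose. The median log2 fold change of the 15 was -0.826. Igdcc3, a cell surface protein of the immunoglobulin superfamily (ENSMUSG00000032394, chromosome 9, 65141189 to 65185872 on mm10), stood at 11.3, 9.08 and 14.998 CPM in the E11.5 libraries and at 233, 284 and 312 CPM in the E10.5 libraries. The stages did not overlap, and the log2 fold change was -4.55 with a standard error (SE) of 0.17 (edgeR adjusted p = 7.16e-09). Lin28a, which binds let-7 precursors and blocks their maturation, had 2.60, 2.21 and 2.65 CPM at E11.5, against 43.6, 58.6 and 67.6 CPM at E10.5, a log2 fold change of -4.51 (SE 0.21, edgeR adjusted p = 5.83e-08). Its mean was 0.222 CPM at E12.5 and 0.146 CPM at E14.5. Lin28b, its paralog, fell less, to 20.7, 20.7 and 25.5 CPM at E11.5, against 120.5, 142 and 129 CPM at E10.5 (log2 fold change -2.55, SE 0.16).

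Trim71, an RNA-binding ubiquitin ligase, was at 13.7, 10.7 and 14.9 CPM in E11.5 libraries and at 61.9, 65.6 and 65.1 CPM in E10.5 libraries. Sall4, a zinc finger factor of early embryonic cells, shared its log2 fold change of -2.29. Every E11.5 library was below every E10.5 library for both genes. Arid3a, a DNA-binding protein, averaged 35.8 ± 2.13 CPM at E11.5 and 80.2 ± 14.8 CPM at E10.5 (SD, n = 3 each), and Dnmt3b, a de novo DNA methyltransferase, averaged 20.9 ± 1.87 CPM at E11.5 and 46.2 ± 5.25 CPM at E10.5. The other de novo enzyme, Dnmt3a, moved the opposite way, with 423, 419.7 and 410.0 CPM at E11.5, against 295, 270.3 and 278 CPM at E10.5 (log2 fold change 0.57, SE 0.08, edgeR adjusted p = 0.000159). Fetal mRNA-binding proteins fell by smaller amounts: Igf2bp1 and Igf2bp3 both had a log2 fold change of -0.55. Hmga2, a chromatin protein and known let-7 target, was the member that passed in neither direction, at 729, 764 and 700.4 CPM in E11.5 libraries and 761, 666 and 646 CPM in E10.5 libraries (log2 fold change 0.08, SE 0.12). Its relative Hmga1 fell to 426 ± 43.5 CPM at E11.5, against 691 ± 83.1 CPM at E10.5 (SD, n = 3 each). Igdcc4, the member that rose, averaged 44.9 ± 2.51 CPM at E11.5 and 32.8 ± 6.07 CPM at E10.5, and it lost the call when replicate 1 or 2 of either stage was left out, with an edgeR adjusted p up to 0.0845.

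**Figure D2:**
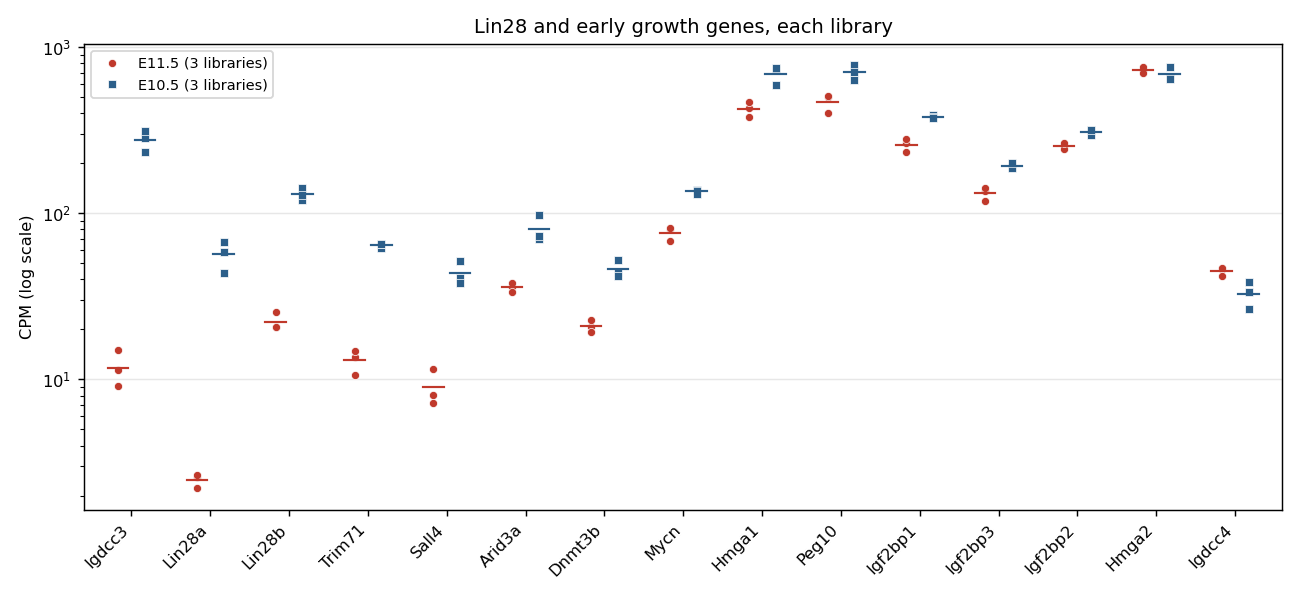
Level of each tested member of the Lin28 and early growth list in CPM on a log scale, with E11.5 libraries as circles left of E10.5 libraries as squares and the mean of 3 libraries as a line. Points of the 2 stages do not overlap for Igdcc3, Lin28a, Lin28b, Trim71 and Sall4, and they overlap for Hmga2, with 700.4 to 764 CPM at E11.5 and 646 to 761 CPM at E10.5.

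The let-7 microRNAs, which Lin28 proteins hold back, pair with target mRNAs through their seed, bases 2 to 8 of the mature RNA. Mature microRNAs were not measured, because poly-A selection leaves them out, so the sequences below describe the mRNAs of the list and not let-7 levels. In the RefSeq table for GRCm38.p6, 10 of 11 listed mouse family members carry the same seed, GAGGUAG, set in capitals here, and let-7j differs in its last seed base:
mmu-let-7a-5p: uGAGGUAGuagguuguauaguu
mmu-let-7b-5p: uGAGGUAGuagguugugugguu
mmu-let-7g-5p: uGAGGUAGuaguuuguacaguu
mmu-let-7j: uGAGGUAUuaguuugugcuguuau

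The complement of the seed, CTACCTC, was searched on the transcript strand in the annotated 3′ UTR of each list member (GENCODE transcripts on GRCm38, the assembly that mm10 names). Because the list was built around Lin28 and known let-7 targets, matches in its members follow in part from that choice and test nothing about the falls. Igdcc3 had 2 matches in a 3′ UTR of 538 bases, and 4.13% of the 1575 UTRs within 20% of that length held at least 1 match. Lin28a had 2 matches in 2775 bases (14.8% of UTRs of like length held 1 or more), Lin28b had 4 in 4445 bases (24.2%) and Trim71 had 4 in 5512 bases (29.1%). Igf2bp1 and Hmga2 had 4 each, Arid3a had 2, and Mycn, Dnmt3b and Peg10 had none. Hmga2, with 4 matches, was not called, Igdcc4, with 1 match, rose, and Mycn, Dnmt3b and Peg10 fell with none. Over all genes with a 3′ UTR, 1418 of 15088 tested genes held a match (9.4%), against 182 of 2039 genes that rose (8.93%) and 255 of 2178 that fell (11.7%), whose median UTR lengths were 1025, 1308 and 1124 bases. Windows of 30 bases that end in a match followed by A, the form CTACCTCA, are given for the 4 members that fell most among those with such a match (both windows of Igdcc3 and Lin28a, the window of Lin28b and the first of 4 of Trim71), with the match in capitals and all read 5′ to 3′ on the transcript strand. They lie on mm10 at chr9:65185700-65185729 and chr9:65185780-65185809 on the plus strand for Igdcc3, and on the minus strand at chr4:134005189-134005218 and chr4:134004551-134004580 for Lin28a, chr10:45381022-45381051 for Lin28b and chr9:114512472-114512501 for Trim71. A match of letters is a description of these UTRs and not a measured site of repression:
Igdcc3 first: gagctgttgtgactctcagcacCTACCTCA
Igdcc3 second: cccacagagcccgaaagcactcCTACCTCA
Lin28a first: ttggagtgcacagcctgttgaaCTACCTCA
Lin28a second: atgctttgagatcgccacaaacCTACCTCA
Lin28b: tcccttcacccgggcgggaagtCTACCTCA
Trim71: aaagtacaacattgcctaagtcCTACCTCA

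Genes of ribosome production, glycolysis and protein folding were lower at E11.5, while most genes of DNA replication and mitosis did not pass the test. Of 25 nucleolar and RNA polymerase I genes, 16 fell (64.0%) and the other 9 were not called, with a median log2 fold change of -0.377, and 11 fell when E10.5 replicate 2 was left out. Ncl, which encodes the nucleolar protein nucleolin, stood at 1344, 1364 and 1392 CPM in E11.5 libraries and at 1909, 2101 and 1852 CPM in E10.5 libraries (log2 fold change -0.52, SE 0.10, edgeR adjusted p = 0.00197). Nolc1, a nucleolar phosphoprotein, averaged 199.97 ± 9.69 CPM at E11.5 and 292 ± 10.1 CPM at E10.5, and Polr1b, the second-largest subunit of RNA polymerase I, averaged 44.5 ± 4.66 CPM at E11.5 and 63.7 ± 1.99 CPM at E10.5 (SD, n = 3 each). The stages did not overlap for Ncl, Nolc1 or Polr1b. Tcof1, which encodes treacle, a nucleolar factor whose human gene is mutated in Treacher Collins syndrome of the face, did not pass, with 129.9, 114 and 129 CPM at E11.5, against 146, 139 and 135 CPM at E10.5 (edgeR adjusted p = 0.176). The summed level of the 25 genes was 7071 to 7239 CPM at E11.5, against 8599 to 10810 CPM at E10.5.

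Glycolysis gave 15 members that fell and 2 that rose among 25 genes of glucose use and hypoxia (60.0% and 8.0%), and the median log2 fold change was -0.458. The 2 that rose, Hk1 and Pfkfb4, both lost the call without E10.5 replicate 2, E10.5 replicate 3, E11.5 replicate 1 and E11.5 replicate 2 in turn, and Pfkfb4 also without E10.5 replicate 1, with an edgeR adjusted p up to 0.082 for Hk1 and 0.171 for Pfkfb4. Eno1, the glycolytic enolase, had 1389, 1261 and 1555 CPM in E11.5 libraries, against 2713, 3162 and 2506 CPM in E10.5 libraries. All E11.5 libraries were lower, by a log2 fold change of -0.99 (SE 0.13, edgeR adjusted p = 8.34e-05). Ldha, which turns pyruvate into lactate, averaged 929 ± 83.6 CPM at E11.5 and 1804 ± 307 CPM at E10.5, and the aldolase Aldoa averaged 266 ± 32.8 CPM at E11.5 and 485 ± 29.9 CPM at E10.5 (SD, n = 3 each). Pdk1, a pyruvate dehydrogenase kinase, fell to 68.9 ± 2.83 CPM at E11.5, against 112 ± 3.996 CPM at E10.5. Gapdh narrowly missed the threshold, at 2926, 2789 and 3210.1 CPM in E11.5 libraries and 3836, 4426 and 3509 CPM in E10.5 libraries (edgeR adjusted p = 0.0591). Of 15 heat shock and folding genes, 6 fell and 1 rose (40.0% and 6.67%). The mitochondrial chaperonin Hspd1 fell to 654, 641 and 698 CPM at E11.5, against 1160.3, 1385 and 1136 CPM at E10.5 (log2 fold change -0.89, SE 0.11). The cytosolic chaperones Hsp90aa1 and Hspa8 had log2 fold changes of -0.58 and -0.55.

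Transcription factors of growth moved in both directions. Myc was at 19.6, 20.2 and 19.7 CPM in the E11.5 libraries, against 34.1, 36.7 and 45.6 CPM in the E10.5 libraries (log2 fold change -0.97, SE 0.11, edgeR adjusted p = 4.5e-05). Mycn averaged 76.5 ± 7.01 CPM at E11.5 and 136 ± 3.65 CPM at E10.5 (SD, n = 3 each). Mxd3 and Mxd4, partners of Max that oppose Myc, rose, Mxd3 to 29.4, 28.2 and 28.9 CPM at E11.5, against 14.9, 15.1 and 9.67 CPM at E10.5. Among 25 replication genes 4 fell (16.0%) and 21 were not called, 2 fell without E11.5 replicate 2 and 8 without E10.5 replicate 3. At an unadjusted p under 0.05 in edgeR, 11 were lower and 0 higher, and 12 fell with the share outside genes as covariate. The 4 included Mcm10, a factor of replication fork assembly, at 94.2 ± 5.83 CPM at E11.5 and 133 ± 9.50 CPM at E10.5. Of 25 mitosis genes 21 were not called, among them Mki67, at 866, 831 and 899 CPM in E11.5 libraries and 795, 786 and 867 CPM in E10.5 libraries, and Top2a, with a log2 fold change of 0.12 (SE 0.12). The other members, 1 that rose and 3 that fell (4.0% and 12.0%), all lost the call without E10.5 replicate 1, without E11.5 replicate 1 and without E11.5 replicate 2. Of 20 cyclins, kinase inhibitors and their partners 4 rose and 4 fell, with 1 that fell when E10.5 replicate 1 was left out, likewise for E11.5 replicate 1 and for E11.5 replicate 2, and 2 that fell when E10.5 replicate 2 was left out, likewise for E11.5 replicate 3. Cdkn1a, an inhibitor of cyclin-dependent kinases, averaged 13.3 ± 1.85 CPM at E11.5 and 20.8 ± 1.19 CPM at E10.5 (edgeR adjusted p = 0.0358), a fall whose call was lost when any single library was left out (adjusted p up to 0.132). The cell cycle inhibitors Cdkn1c and Cdkn2c rose, Cdkn2c to 7.21 ± 0.681 CPM at E11.5, against 3.39 ± 0.0915 CPM at E10.5, and Ccne1, the G1 cyclin E1, fell to 59.1 ± 1.52 CPM at E11.5, against 92.4 ± 4.15 CPM at E10.5. The 75 tested nuclear genes of the respiratory chain gave 0 calls in edgeR (4 higher and 1 lower at an unadjusted p under 0.05, 1 higher in DESeq2 and 0 in limma-voom). Other edgeR fits called some of them, with 9 higher under no filter on low counts, 5 higher with a replicate block, 3 higher with library sizes alone, 3 higher in the 2 stages alone, 2 higher without E10.5 replicate 2, and 7 higher and 5 lower with the share outside genes as covariate. Of 83 cytosolic ribosomal protein genes 1 rose and 2 fell (1.2% and 2.41%), and 1 passed without E10.5 replicate 1 and 1 without each E11.5 library. Their levels spread widely at E10.5: their sum was 90880 to 94190 CPM at E11.5, against 98180, 114300 and 77380 CPM in E10.5 replicates 1, 2 and 3. The nucleolar, glycolytic and folding sums had the same order among the E10.5 libraries, with replicate 2 highest and replicate 3 lowest, and the part of that spread in these results was not tested.

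Wnt signalling genes were higher at E11.5 at the level of ligands, feedback inhibitors and target genes. Wnt ligands bind Frizzled receptors on neighbouring cells, and in the face those made by the ectoderm, Wnt9b and Wnt3 among them, are needed for outgrowth of the mesenchyme and closure of the lip. Of 16 tested ligands, 10 rose (62.5%), and the median log2 fold change was 1.33. Wnt7b had 98.4, 85.8 and 81.1 CPM in E11.5 libraries and 15.6, 12.1 and 7.66 CPM in E10.5 libraries, the largest rise of a ligand (log2 fold change 2.91, SE 0.26, edgeR adjusted p = 4.81e-06). Wnt9b was at 76.4, 63.2 and 73.5 CPM at E11.5, against 30.5, 20.6 and 24.0 CPM at E10.5, and Wnt3 averaged 30.8 ± 2.40 CPM at E11.5 and 11.8 ± 2.49 CPM at E10.5 (SD, n = 3 each). Neither gene's libraries overlapped between the stages. Their means at E12.5 were 2.43 CPM for Wnt9b and 1.44 CPM for Wnt3. Wnt5a, the non-canonical ligand made by facial mesenchyme, stood at 267, 304 and 233 CPM at E11.5, against 100.7, 59.9 and 62.8 CPM at E10.5 (log2 fold change 1.85, SE 0.17, edgeR adjusted p = 5.7e-06). Wnt10b, Wnt7a, Wnt11, Wnt10a and Wnt4 rose with log2 fold changes of 1.17 to 2.78, and Wnt6 rose by 0.44 but lost the call when any library other than E10.5 replicate 1 was left out, with an edgeR adjusted p up to 0.137. Wnt3a was not called: E10.5 replicate 2 had 3.47 CPM, inside the E11.5 range of 3.00 to 4.17 CPM, while the other E10.5 libraries had 0.279 and 0.296 CPM.

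Receptors were mixed, with 7 of 24 receptor and R-spondin genes higher and 5 lower (29.2% and 20.8%). Fzd10 rose to 82.0, 93.7 and 75.1 CPM at E11.5, against 24.1, 30.02 and 21.5 CPM at E10.5, whereas Fzd5 fell to 3.38, 2.14 and 2.92 CPM at E11.5, against 8.73, 5.21 and 9.28 CPM at E10.5. Rspo3, a secreted enhancer of Wnt signalling, and Lgr6, a receptor of R-spondins, rose with log2 fold changes of 1.56 and 2.08. Among 24 inhibitors and target genes 14 rose and 4 fell (58.3% and 16.7%; median 0.782), and the 4 became 2 without E11.5 replicate 2, E11.5 replicate 1 or E10.5 replicate 1. Axin2, a feedback inhibitor that canonical Wnt signalling turns on in many tissues, had 159.9, 165 and 157 CPM in E11.5 libraries, against 95.4, 77.1 and 66.3 CPM in E10.5 libraries (log2 fold change 1.01, SE 0.13, edgeR adjusted p = 8.05e-05). Nkd1, another intracellular inhibitor, averaged 132 ± 5.93 CPM at E11.5 and 37.2 ± 10.95 CPM at E10.5, and Sp5, a transcription factor target, averaged 7.15 ± 0.908 CPM at E11.5 and 1.91 ± 0.0510 CPM at E10.5 (SD, n = 3 each). The secreted inhibitors Dkk2 and Wif1 rose by 1.79 and 1.66 on the log2 scale, and Sfrp1 fell by 0.52.

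**Figure D3:**
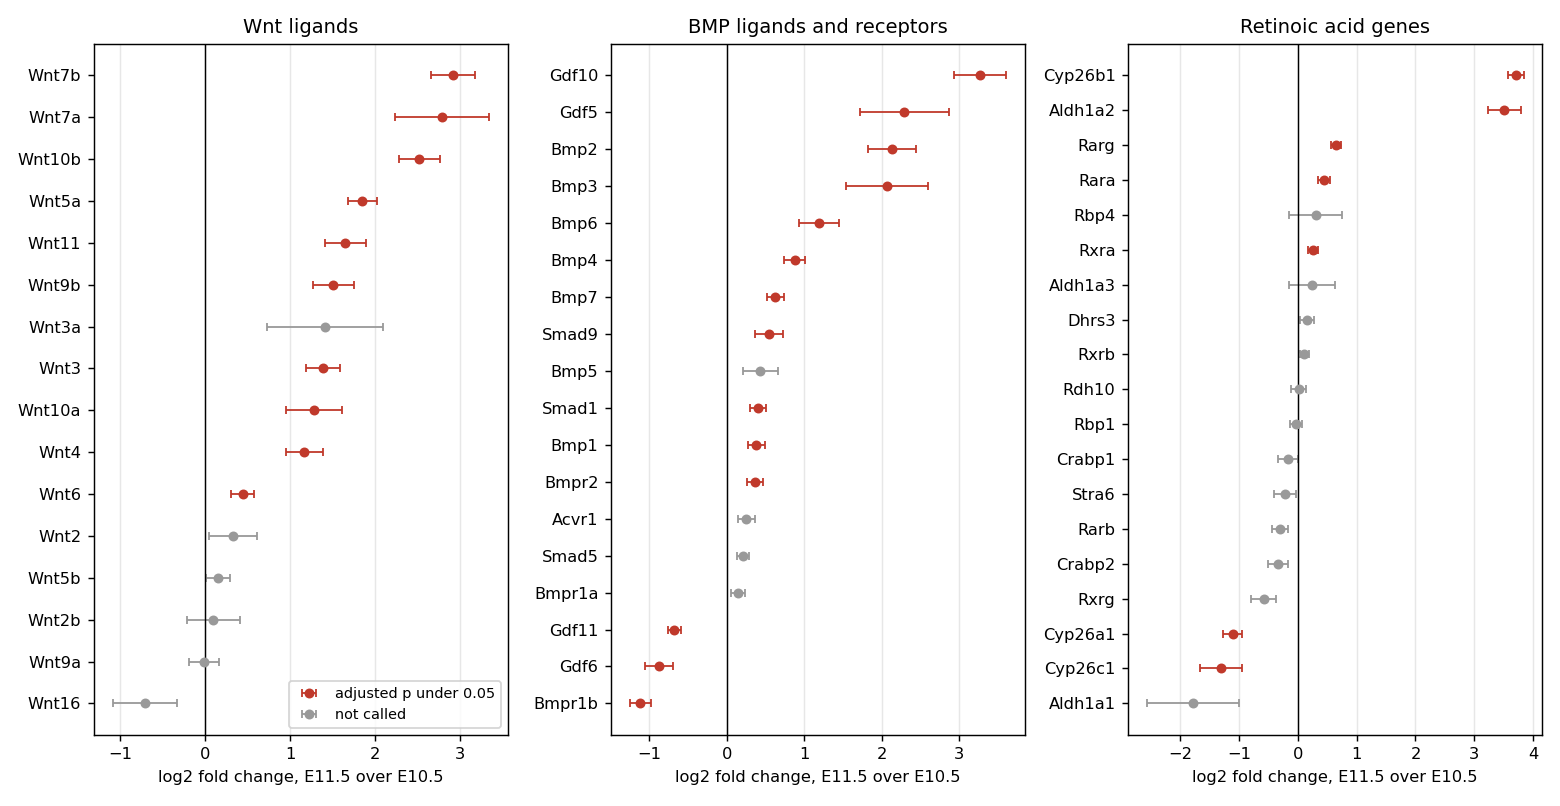
Log2 fold change, E11.5 over E10.5, of every tested Wnt ligand, BMP ligand or receptor and retinoic acid gene, with bars of 1 SE on each side, red where adjusted p was under 0.05 and grey otherwise. Wnt7b at 2.91, Gdf10 at 3.27 and Cyp26b1 at 3.70 lie furthest to the right in their panels, Bmpr1b at -1.12 and Cyp26a1 at -1.11 lie to the left of 0, and Aldh1a1, at -1.79, was not called.

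Bone morphogenetic protein (BMP) ligands and their secreted antagonists were both higher at E11.5. BMP signals from the ectoderm shape the size and later the skeletal fate of the facial mesenchyme. Of 18 ligand, receptor and Smad genes, 11 rose and 3 fell (61.1% and 16.7%, median log2 fold change 0.418), and 7 rose without E11.5 replicate 1, as also without E11.5 replicate 2. Bmp4 was at 53.7, 58.3 and 55.1 CPM at E11.5, against 36.5, 22.4 and 32.0 CPM at E10.5 (log2 fold change 0.88, SE 0.14, edgeR adjusted p = 0.00046). Bmp2 had 12.7, 14.8 and 9.79 CPM in E11.5 libraries and 2.69, 1.29 and 4.44 CPM in E10.5 libraries, and Bmp7 averaged 75.4 ± 4.59 CPM at E11.5 and 48.9 ± 5.09 CPM at E10.5 (SD, n = 3 each). No E10.5 library reached the E11.5 range for any of them. Gdf10, also called Bmp3b, showed the largest rise of the list, to 10.4, 11.5 and 4.86 CPM at E11.5, against 0.873, 1.18 and 0.724 CPM at E10.5. The receptor Bmpr1b fell, with 15.1, 13.0 and 16.2 CPM at E11.5 and 29.99, 37.6 and 28.8 CPM at E10.5 (log2 fold change -1.12, SE 0.13), as did the ligands Gdf11 and Gdf6, by 0.68 and 0.88 on the log2 scale.

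Among 21 antagonists and target genes of BMP, 12 rose and 1 fell (57.1% and 4.76%, median 0.564). Grem1, a secreted antagonist, stood at 20.01, 18.6 and 18.6 CPM in E11.5 libraries, against 3.63, 1.52 and 2.40 CPM in E10.5 libraries (log2 fold change 2.92, SE 0.28, edgeR adjusted p = 9.03e-06). Fst, or follistatin, which binds activins, had 20.6, 20.9 and 21.6 CPM at E11.5, against 2.72, 3.40 and 1.05 CPM at E10.5. Both genes were tight at E11.5 and several-fold lower in every E10.5 library. Nog, another antagonist, averaged 2.86 ± 0.956 CPM at E11.5 and 1.204 ± 0.168 CPM at E10.5, and Chrdl1 was the antagonist that fell, to 2.55 ± 0.116 CPM at E11.5, against 6.07 ± 0.426 CPM at E10.5 (SD, n = 3 each). Of the target genes, Msx1, a homeobox factor needed for palate and tooth, rose to 338, 341 and 352 CPM at E11.5, against 231, 143 and 123 CPM at E10.5, and Id3 rose by 0.36 on the log2 scale. Msx2 did not pass, with 48.5, 34.1 and 51.8 CPM at E11.5 and 76.0, 44.4 and 42.6 CPM at E10.5. In the related TGF-beta list 8 of 20 genes rose and 3 fell, 1 without E11.5 replicate 2. Tgfb2 averaged 36.7 ± 4.01 CPM at E11.5 and 17.1 ± 5.56 CPM at E10.5, and Ltbp1 and Ltbp3, which store latent TGF-beta in the matrix, rose by 1.10 and 1.33 on the log2 scale.

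Retinoic acid genes changed mainly at the enzymes that make and destroy the signal. Of 19 genes, 5 rose and 2 fell (26.3% and 10.5%), and the median log2 fold change was 0.0112. Aldh1a2, the enzyme that makes retinoic acid in mesenchyme, had 81.1, 66.6 and 61.8 CPM in E11.5 libraries and 5.13, 3.29 and 9.77 CPM in E10.5 libraries (log2 fold change 3.51, SE 0.28, edgeR adjusted p = 1.75e-06). Cyp26b1, an enzyme that degrades retinoic acid (ENSMUSG00000063415, chromosome 6, 84571414 to 84593908 on mm10), had 114, 116 and 100.1 CPM at E11.5, against 9.15, 8.95 and 7.34 CPM at E10.5 (log2 fold change 3.70, SE 0.14, edgeR adjusted p = 7.16e-09). Synthesis and degradation genes thus rose side by side, each more than 10-fold in mean CPM. The other degrading enzyme that held its call, Cyp26a1, moved the opposite way, with 10.5, 7.28 and 10.2 CPM at E11.5, against 16.7, 23.9 and 19.8 CPM at E10.5. Aldh1a3, the synthesis enzyme of facial ectoderm and nasal placode, was spread within both stages, at 32.4, 67.0 and 60.4 CPM at E11.5 and 61.7, 27.2 and 45.6 CPM at E10.5. The receptor genes Rarg and Rara rose by 0.65 and 0.44 on the log2 scale.

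Fgf, Hedgehog and Notch genes gave fewer or mixed calls. Of 19 Fgf ligands 4 rose and 1 fell (21.1% and 5.26%). Fgf8, the ectodermal survival signal of the early jaw, was the ligand that fell, to 10.6, 4.90 and 12.7 CPM at E11.5, against 22.9, 19.6 and 28.9 CPM at E10.5 (log2 fold change -1.34, edgeR adjusted p = 0.0137). That call was lost without E10.5 replicate 3 and without E11.5 replicate 2, where the adjusted p was 0.05 and 0.0532. Fgf9, another epithelial ligand, rose to 7.81 ± 0.297 CPM at E11.5, against 3.94 ± 1.43 CPM at E10.5, and Fgf2 rose by 2.37 on the log2 scale. Of 18 Fgf receptors and feedback genes 2 rose and 3 fell (11.1% and 16.7%). Without E11.5 replicate 1, 1 rose, and without E11.5 replicate 2, 1 fell. Fgfr2, a receptor, rose to 174, 165 and 153 CPM at E11.5, against 121, 104 and 133 CPM at E10.5. Il17rd, an inhibitor of Fgf signalling, fell to 73.9, 72.7 and 82.0 CPM at E11.5, against 123, 108 and 107 CPM at E10.5 (log2 fold change -0.56, SE 0.12, edgeR adjusted p = 0.00335). Spry1 and Spry2 were not called, with log2 fold changes of 0.09 and -0.23. In the Hedgehog list 4 of 20 rose and 3 fell. Boc, a co-receptor, had 58.2, 60.7 and 48.8 CPM in E11.5 libraries, against 18.3, 22.3 and 19.1 CPM in E10.5 libraries, and the transcription factor Gli2 rose by 0.66 on the log2 scale. Hhip, which binds and traps Hedgehog ligands, fell to 2.42, 1.86 and 2.48 CPM at E11.5, against 6.46, 6.28 and 12.9 CPM at E10.5. The target genes Ptch1 and Gli1 were not called (edgeR adjusted p = 0.0514 and 0.156), and E10.5 replicate 3 was the highest E10.5 library for both.

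Of 18 Notch genes 2 rose and 5 fell (11.1% and 27.8%). Hey2, a transcriptional repressor that Notch can turn on, was at 89.8, 111 and 70.6 CPM at E11.5, against 9.60, 13.0 and 9.11 CPM at E10.5 (log2 fold change 3.10, SE 0.18, edgeR adjusted p = 1.86e-07), and its relative Hey1 rose by 1.17 on the log2 scale. Heyl fell to 5.95, 7.87 and 6.43 CPM at E11.5, against 22.5, 44.0 and 31.9 CPM at E10.5. The ligands Dll1 and Dll3, which mark forming neurons in many tissues, fell as well, Dll1 to 1.22 ± 0.176 CPM at E11.5, against 5.26 ± 3.33 CPM at E10.5 (SD, n = 3 each). Dll1, Dll3 and Heyl were highest in E10.5 replicate 2, the library with the highest summed level of neuron markers, given further on, and the part of nerve tissue in these falls was not tested.

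Many factors that pattern the upper jaw were higher at E11.5, though Dlx1, Dlx2, Nr2f1 and Nr2f2, given further on, fell. Of 16 genes of maxillary and lateral patterning, 11 rose (68.8%), with a median log2 fold change of 0.662 over the list. Pitx1, a homeobox factor of the jaw and hindlimb, was the member that fell, a call lost without E10.5 replicate 3 (edgeR adjusted p = 0.0508) and without E11.5 replicate 2 (adjusted p = 0.0613). Six2, a homeobox factor of facial mesenchyme, had 165, 149.7 and 159 CPM in E11.5 libraries and 63.8, 36.3 and 54.0 CPM in E10.5 libraries (log2 fold change 1.62, SE 0.16, edgeR adjusted p = 9.33e-06). Osr1, the paralog of the palate factor Osr2, averaged 42.0 ± 1.502 CPM at E11.5 and 14.1 ± 2.36 CPM at E10.5 (SD, n = 3 each). Osr1 rose less than Osr2, whose log2 fold change was 3.36. Tbx22, a palate gene whose human form is mutated in X-linked cleft palate, rose to 14.7, 20.4 and 15.8 CPM at E11.5, against 9.81, 6.91 and 5.86 CPM at E10.5. Barx1 and Lhx6, homeobox factors of molar-forming mesenchyme, rose by 0.71 and 0.62 on the log2 scale.

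General mesenchymal factors also rose, with 7 of 14 facial mesenchyme genes higher (50.0%, median 0.556). Twist1, a helix-loop-helix factor of crest mesenchyme, was at 424, 412 and 343 CPM at E11.5, against 249, 168 and 159 CPM at E10.5 (log2 fold change 1.03, SE 0.16, edgeR adjusted p = 0.000424). Snai2 and Zeb2, repressors of epithelial genes, rose with log2 fold changes of 1.19 and 1.43. Zeb1, the paralog of Zeb2, fell instead, to 51.3, 50.0 and 54.6 CPM at E11.5, against 79.5, 97.8 and 89.0 CPM at E10.5 (log2 fold change -0.77, SE 0.11). Prrx1 rose by 0.48 on the log2 scale and lost the call without E10.5 replicate 3 (edgeR adjusted p = 0.0537) or E11.5 replicate 2 (adjusted p = 0.0592). The summed level of the 14 genes was 3218 to 3500 CPM at E11.5, against 1988 to 2485 CPM at E10.5.

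Some factors at no more than 3.03 CPM in any E10.5 library were far higher at E11.5. Tbx15, a T-box factor of craniofacial and limb mesenchyme, had 61.2, 91.4 and 38.8 CPM in E11.5 libraries and 2.86, 2.59 and 3.03 CPM in E10.5 libraries (log2 fold change 4.49, SE 0.28, edgeR adjusted p = 2.43e-07). Nfix, a nuclear factor I protein, had 24.4, 24.2 and 16.0 CPM at E11.5, against 0.838, 0.481 and 0.559 CPM at E10.5, and its mean went on to 92.3 CPM at E12.5 and 232 CPM at E14.5. Runx3, a Runt factor, had 6.69, 9.08 and 3.98 CPM at E11.5 and at most 0.244 CPM in an E10.5 library. For all 3 genes E11.5 replicate 3 was the lowest E11.5 library and still lay far above E10.5. In the T-box family 5 of 12 tested genes rose and 1 fell (41.7% and 8.33%). The 5 became 3 without E11.5 replicate 2, E11.5 replicate 1 or E10.5 replicate 2. Tbx2 rose to 292 ± 4.03 CPM at E11.5, against 158 ± 45.4 CPM at E10.5, while Tbx1, a factor of pharyngeal mesoderm and endoderm, fell to 2.21 ± 0.538 CPM at E11.5, against 6.64 ± 3.39 CPM at E10.5 (SD, n = 3 each).

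Forkhead and Sox factors fell more often than they rose. Of 34 tested forkhead genes, 13 fell and 4 rose (38.2% and 11.8%, median -0.332), and the 4 became 2 without E11.5 replicate 1 and without E10.5 replicate 2. Foxc1, a factor of periocular, vascular and skeletal mesenchyme, had 12.1, 10.3 and 10.9 CPM in E11.5 libraries, against 34.9, 28.8 and 64.7 CPM in E10.5 libraries (log2 fold change -1.95, SE 0.31, edgeR adjusted p = 0.000561). Foxd1 had 7.80, 7.08 and 4.22 CPM at E11.5, against 20.3, 23.1 and 26.3 CPM at E10.5, and Foxc2 and Foxd2 fell by 1.78 and 1.27 on the log2 scale. E10.5 replicate 3 was the highest library for all 4, and every E11.5 library lay below every E10.5 library. Means at E12.5 were 51.7 CPM for Foxc1 and 47.2 CPM for Foxd1. Foxf1 and Foxf2, Hedgehog-responsive palate factors, were not called, Foxf2 with 18.3, 10.6 and 13.3 CPM at E11.5 and 18.0, 10.7 and 24.8 CPM at E10.5. Of 19 Sox factors 6 fell (31.6%) and 13 were not called. Sox5 averaged 27.2 ± 5.68 CPM at E11.5 and 53.8 ± 3.44 CPM at E10.5, and Sox10, a factor of crest cells and their glia, averaged 19.1 ± 2.77 CPM at E11.5 and 43.8 ± 14.4 CPM at E10.5 (SD, n = 3 each).

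Axial patterning genes of the arch moved in a mixed way. Dlx2 fell to 44.9, 33.2 and 40.3 CPM at E11.5, against 78.4, 69.1 and 84.1 CPM at E10.5 (log2 fold change -0.97, SE 0.12, edgeR adjusted p = 7.78e-05), and Dlx1, its linked partner, fell by 0.36 on the log2 scale. Both are needed for the upper jaw in mice. The nuclear receptors Nr2f1 and Nr2f2, which act in the upper part of the first arch, fell by 0.83 and 0.97. Gsc, a homeobox factor, rose to 17.6, 18.4 and 14.2 CPM at E11.5, against 2.97, 2.14 and 2.07 CPM at E10.5, and Ednra, the receptor that specifies the lower jaw when its ligand is present, rose by 0.95 on the log2 scale. The ligand gene Edn1 was not called, at no more than 0.966 CPM in an E11.5 library and 1.25 CPM in an E10.5 library. In a list of Eya, Dach and sine oculis homeobox genes 3 of 12 genes rose and 5 fell, Dach1 to 31.7 ± 5.24 CPM at E11.5, against 71.1 ± 2.83 CPM at E10.5 (SD, n = 3 each). Among the Iroquois factors Irx5 rose to 61.5, 54.5 and 57.8 CPM at E11.5, against 30.6, 22.3 and 24.97 CPM at E10.5, and Pknox2, a homeobox factor of the same superclass, fell to 11.6 ± 1.58 CPM at E11.5, against 43.2 ± 3.29 CPM at E10.5.

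Matrix genes of connective tissue rose together, and matrix genes of cartilage fell. Of 42 tested collagen chains 22 rose (52.4%) and 8 fell (median log2 fold change 0.509). The chains of collagen VI, a beaded filament of soft connective tissue, rose alike: Col6a1, Col6a2 and Col6a3 had log2 fold changes of 2.76, 2.95 and 2.82. Col6a2 was at 103, 113 and 85.5 CPM in E11.5 libraries and at 14.6, 11.8 and 12.4 CPM in E10.5 libraries (SE 0.19, edgeR adjusted p = 3.1e-07). The fibril chains Col1a2, Col5a1 and Col5a2 rose by 1.71, 1.05 and 1.33, and Col8a1, a short network chain, rose to 12.5, 12.8 and 9.86 CPM at E11.5, against 0.733, 0.702 and 0.921 CPM at E10.5. Col2a1, the main collagen of cartilage, fell to 193, 136 and 198 CPM at E11.5, against 423, 376 and 555 CPM at E10.5 (log2 fold change -1.36, SE 0.28, edgeR adjusted p = 0.00345). Col9a1, a chain that coats collagen II fibrils, fell to 49.6 ± 4.86 CPM at E11.5, against 130.1 ± 6.35 CPM at E10.5 (SD, n = 3 each). P4ha3, a subunit of collagen prolyl hydroxylase, rose to 16.6, 19.2 and 14.96 CPM at E11.5, against 1.05, 0.407 and 1.64 CPM at E10.5.

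Small leucine-rich proteoglycans, which regulate fibril width, gave 8 of 15 members that rose (53.3%), and their median log2 fold change was 1.51. Dcn, or decorin, had 18.8, 28.8 and 12.8 CPM in E11.5 libraries and 1.99, 2.85 and 2.73 CPM in E10.5 libraries (log2 fold change 2.99, SE 0.36, edgeR adjusted p = 5.55e-05). Fmod, Kera and Omd, further members of the family, rose by 1.51, 3.01 and 3.16 on the log2 scale. Of 30 adhesive glycoproteins and elastic fibre genes 14 rose and 4 fell (46.7% and 13.3%). Postn, or periostin, was at 191, 214 and 158 CPM at E11.5, against 65.8, 75.3 and 66.3 CPM at E10.5, and Eln, or elastin, was at 25.2, 29.8 and 22.1 CPM at E11.5, against 5.90, 3.33 and 6.32 CPM at E10.5. Both were highest in E11.5 replicate 2 and lowest in replicate 3, as were Tbx15 and Dcn. Fn1 and Vcan, which encode fibronectin and versican, were not called, with log2 fold changes of 0.44 and 0.27 (edgeR adjusted p = 0.0607 and 0.124). Among metalloproteinases and their inhibitors 10 of 37 rose and 1 fell (27.0% and 2.7%). Mmp11 rose to 57.3 ± 1.23 CPM at E11.5, against 23.6 ± 3.60 CPM at E10.5 (SD, n = 3 each), and Mmp14, an activator of other collagenases, by 0.72 on the log2 scale.

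Cartilage and bone markers split. Of 15 cartilage genes 6 fell and 9 were not called (40.0% lower, median -1.08). Hapln1, the link protein of cartilage matrix, was at 25.2, 18.2 and 26.7 CPM at E11.5, against 76.8, 84.8 and 95.4 CPM at E10.5, and Acan, which encodes aggrecan of differentiated cartilage, had 6 counts over the E11.5 libraries and 13 over the E10.5 libraries. The list's sum was 393.6 to 497.2 CPM at E11.5, against 851 to 1089 CPM at E10.5. Of 14 bone genes 6 rose and 2 fell (42.9% and 14.3%). Sp7, or osterix, a factor of bone-forming cells, rose to 4.88, 7.32 and 5.31 CPM at E11.5, against 1.40, 1.29 and 0.855 CPM at E10.5, and Sparc, an acidic matrix protein, rose to 249 ± 15.6 CPM at E11.5, against 141 ± 11.3 CPM at E10.5 (SD, n = 3 each). Spp1, or osteopontin, fell to 0.392, 1.00 and 0.816 CPM at E11.5, against 3.11, 3.73 and 3.75 CPM at E10.5.

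**Figure D4:**
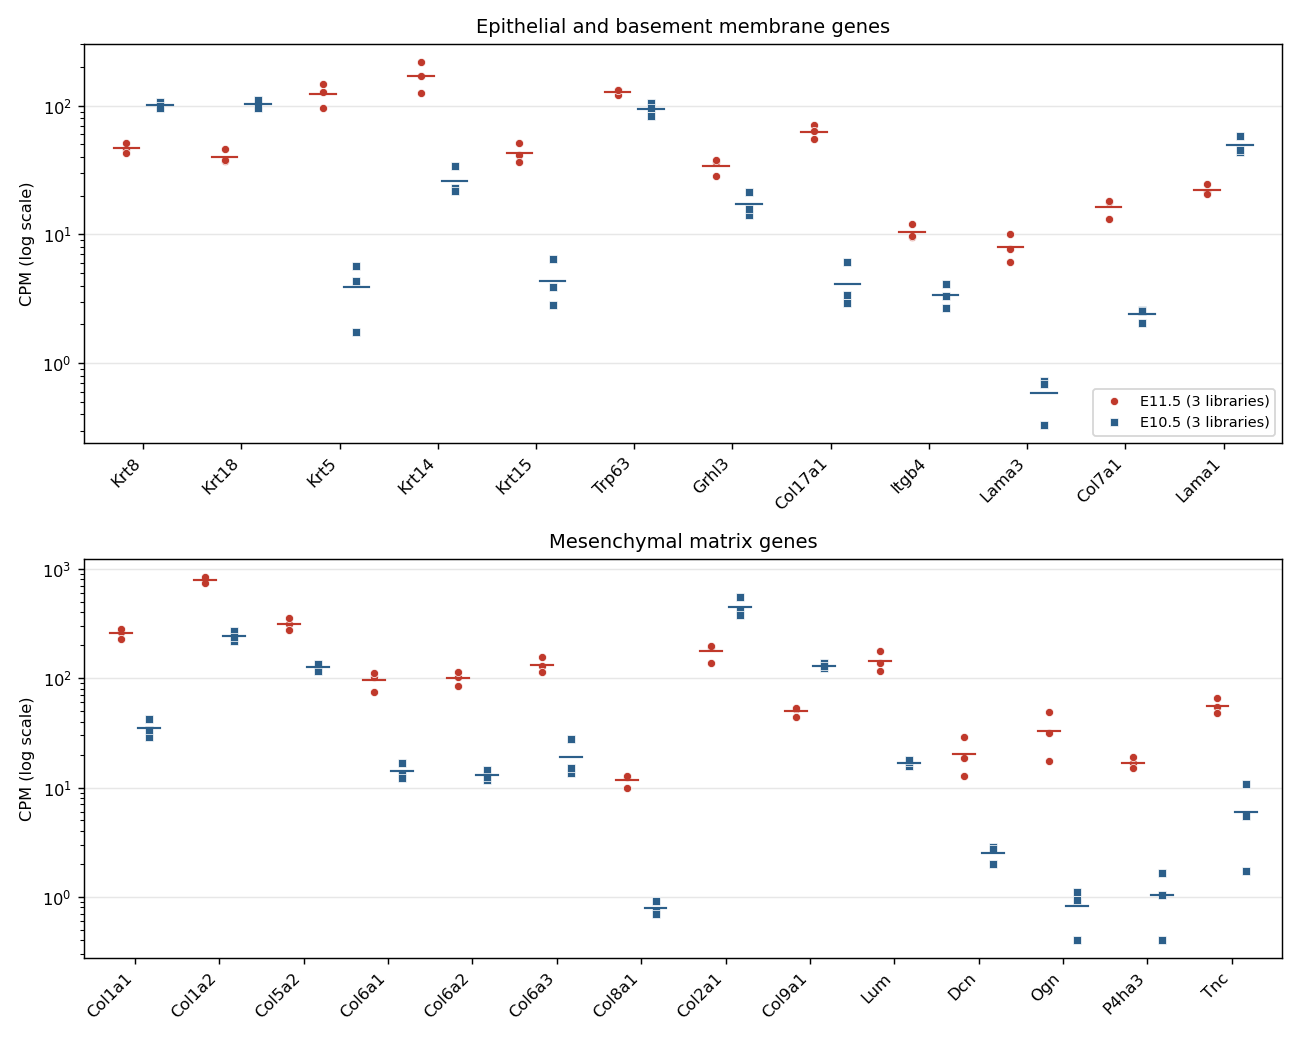
Levels in CPM on a log scale of epithelial and basement membrane genes (upper panel) and of mesenchymal matrix genes (lower panel), with E11.5 libraries as circles left of E10.5 libraries as squares and means as lines. Krt8, Krt18, Lama1, Col2a1 and Col9a1 lie lower at E11.5, Krt18 at 37.1 to 45.7 CPM against 96.6 to 110.0 CPM, and the other genes lie higher, Col17a1 at 54.8 to 70.5 CPM against 2.96 to 6.08 CPM.

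Keratins and attachment genes of epithelia differed between the stages. In whole prominences, a change within the surface epithelium and a change in the mix of epithelia cannot be told apart. Keratins 8 and 18 pair in simple epithelia, and keratins 5, 14 and 15 belong to the basal layer of stratified epithelia. Krt8 fell to 45.7, 42.7 and 51.6 CPM at E11.5, against 107, 99.3 and 96.5 CPM at E10.5, and Krt18 to 37.1, 37.6 and 45.7 CPM at E11.5, against 100.5, 96.6 and 110.0 CPM at E10.5 (log2 fold changes -1.11, SE 0.21, and -1.35, SE 0.22; edgeR adjusted p = 0.00162 and 0.000559). Krt15 rose to 41.7, 51.5 and 36.2 CPM at E11.5, against 6.39, 3.92 and 2.83 CPM at E10.5 (log2 fold change 3.30, SE 0.34), and Krt5 and Krt14 rose by 4.99 and 2.71. The simple pair and the basal keratins thus moved in opposite directions, with no overlap between the stages. Of all 31 tested keratins 6 rose and 4 fell (19.4% and 12.9%). Keratin genes include close copies, and how their reads were divided is uncertain.

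Hemidesmosomes fix basal cells to the basement membrane, and several of their genes rose with the basal keratins. Col17a1, the transmembrane collagen of hemidesmosomes (ENSMUSG00000025064, chromosome 19, 47646344 to 47692094 on mm10), had 70.5, 63.2 and 54.8 CPM in E11.5 libraries, against 6.08, 2.96 and 3.39 CPM in E10.5 libraries (log2 fold change 3.92, SE 0.32, edgeR adjusted p = 2.56e-06). Itgb4, the integrin beta chain of hemidesmosomes, rose to 12.0, 9.53 and 9.66 CPM at E11.5, against 4.16, 2.66 and 3.36 CPM at E10.5. Lama3, a chain of laminin 332, and Col7a1, which forms anchoring fibrils, rose by 3.74 and 2.78 on the log2 scale, while Lama1, the laminin chain of early embryonic basement membranes, fell to 22.2 ± 2.27 CPM at E11.5, against 49.1 ± 7.95 CPM at E10.5 (SD, n = 3 each). Over 35 integrins and laminins, 8 rose and 6 fell (22.9% and 17.1%), and 5 rose without E11.5 replicate 2, E11.5 replicate 1 or E10.5 replicate 2.

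Of 18 markers of surface and oral epithelium 8 rose and 3 fell (44.4% and 16.7%, median 0.401), and their sum was 1201 to 1256 CPM at E11.5, against 816.1 to 973.5 CPM at E10.5. Pan-epithelial markers changed little: Epcam had 83.8, 74.8 and 86.3 CPM at E11.5, against 82.9, 75.0 and 82.7 CPM at E10.5 (log2 fold change 0.03, SE 0.18), and Cdh1, or E-cadherin, had a log2 fold change of 0.39 (edgeR adjusted p = 0.127). Trp63, the master factor of stratified epithelium, averaged 129 ± 5.93 CPM at E11.5 and 94.9 ± 11.1 CPM at E10.5 (SD, n = 3 each). Grhl3, a factor of surface barrier cells, rose by 0.99 on the log2 scale. In a list of ectodysplasin signalling and tooth and whisker placodes 9 of 16 genes rose and 3 fell (56.2% and 18.8%). Without E11.5 replicate 3, 1 fell. Edar, the ectodysplasin receptor, rose to 3.84, 2.52 and 2.58 CPM at E11.5, against 0.908, 1.15 and 1.38 CPM at E10.5, and the receptor Tnfrsf19 rose by 1.29 on the log2 scale. The part of a larger share of epithelium in these rises was not tested.

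Axon guidance and adhesion genes rose more often than they fell. Of 68 guidance ligands and receptors, 28 rose and 8 fell (41.2% and 11.8%, median 0.234). Sema5a, a semaphorin, was at 280.5, 286 and 272 CPM at E11.5, against 111, 80.6 and 75.6 CPM at E10.5 (log2 fold change 1.65, SE 0.18, edgeR adjusted p = 2.14e-05). Robo2, a Slit receptor, was at 96.3, 104 and 83.5 CPM at E11.5, against 26.7, 25.4 and 43.0 CPM at E10.5, and Epha3, an Eph receptor, was at 148, 141 and 120.1 CPM at E11.5, against 46.9, 47.5 and 57.1 CPM at E10.5. Unc5d, a netrin receptor, rose by 3.49 on the log2 scale, and its relatives Unc5a and Unc5c fell by 2.62 and 0.72. Plxnd1, a semaphorin receptor that endothelium also carries, fell to 73.3 ± 7.68 CPM at E11.5, against 116 ± 22.5 CPM at E10.5 (SD, n = 3 each). Of 36 cadherins and claudins 12 rose and 5 fell (33.3% and 13.9%), and 8 to 10 rose when any library was left out.

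Markers of sensory neurons were lower at E11.5. Of 21 tested markers 17 fell (81.0%), all of them at least 2-fold, with a median log2 fold change of -2.97. Their summed level was 296.9, 430.6 and 292.3 CPM in E11.5 libraries and 736.6, 1352 and 897.6 CPM in E10.5 libraries. Replicate 2 was the highest library of both stages, and 15 markers fell when E10.5 replicate 2 was left out. Isl1, a homeobox factor of these neurons and of other tissues, fell to 15.1, 19.2 and 19.2 CPM at E11.5, against 56.4, 80.5 and 67.0 CPM at E10.5. Nefm, a neurofilament, averaged 25.2 ± 12.3 CPM at E11.5 and 155 ± 60.8 CPM at E10.5 (SD, n = 3 each). Tubb3 and Stmn2, general neuron markers, were not called, Tubb3 with 63.3, 103 and 61.4 CPM at E11.5, against 114, 266 and 144 CPM at E10.5 (edgeR adjusted p = 0.135). At E10.5 the trigeminal ganglion lies beside the prominence, and its part in these values was not tested.

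Several of the largest falls were of genes known from neurons. Among the 15 largest falls of protein-coding genes with at least 5 CPM at E10.5 and no overlap were Neurod1 and Prdm12, factors of forming and of pain-sensing neurons, Srrm4, a splicing factor of neurons, and Tlx2, a homeobox factor of peripheral neurons. Prdm12 was at 0.392, 0.897 and 0.748 CPM at E11.5, against 8.10, 17.5 and 12.1 CPM at E10.5, and Tlx2 at 0.178, 0.587 and 0.476 CPM at E11.5, against 6.46, 14.6 and 9.54 CPM at E10.5. Zic1, a zinc finger factor of the dorsal neural tube, fell to 0.0712, 0.449 and 0.0680 CPM at E11.5, against 5.66, 22.4 and 1.22 CPM at E10.5, and it was not called by limma-voom (adjusted p = 0.0614). The 15 also held Igdcc3, Lin28a and Wfikkn1, a secreted binder of growth and differentiation factors, which had 0.356, 0.0690 and 0.442 CPM at E11.5, against 3.84, 6.40 and 7.11 CPM at E10.5. Xkr7, Btbd17 and Prdm12, all among the 15, were again highest in E10.5 replicate 2.

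Brain and eye genes were sparse. Sox1, a neural plate factor, had no count in any E11.5 library, against 1.96, 4.77 and 0.230 CPM at E10.5, which makes it at least 64.3-fold lower at a floor of 3 counts over the stage. Six6, a factor of eye and pituitary, had 1 count over the E11.5 libraries and 206 over the E10.5 libraries, a ratio of 207 with a 95% exact interval of 36.7 to 8210. The acetylcholine receptor subunit Chrna6 had no count at E11.5 and 3.56, 4.84 and 5.26 CPM at E10.5, at least 132-fold lower at the same floor. The brain and eye list as a whole had 1 member that rose and 2 that fell among 13 tested (7.69% and 15.4%), 11 falling when no filter on low counts was applied. Its sum was 57.27 to 82.46 CPM at E11.5, against 70.36 to 89.0 CPM at E10.5.

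**Figure D5:**
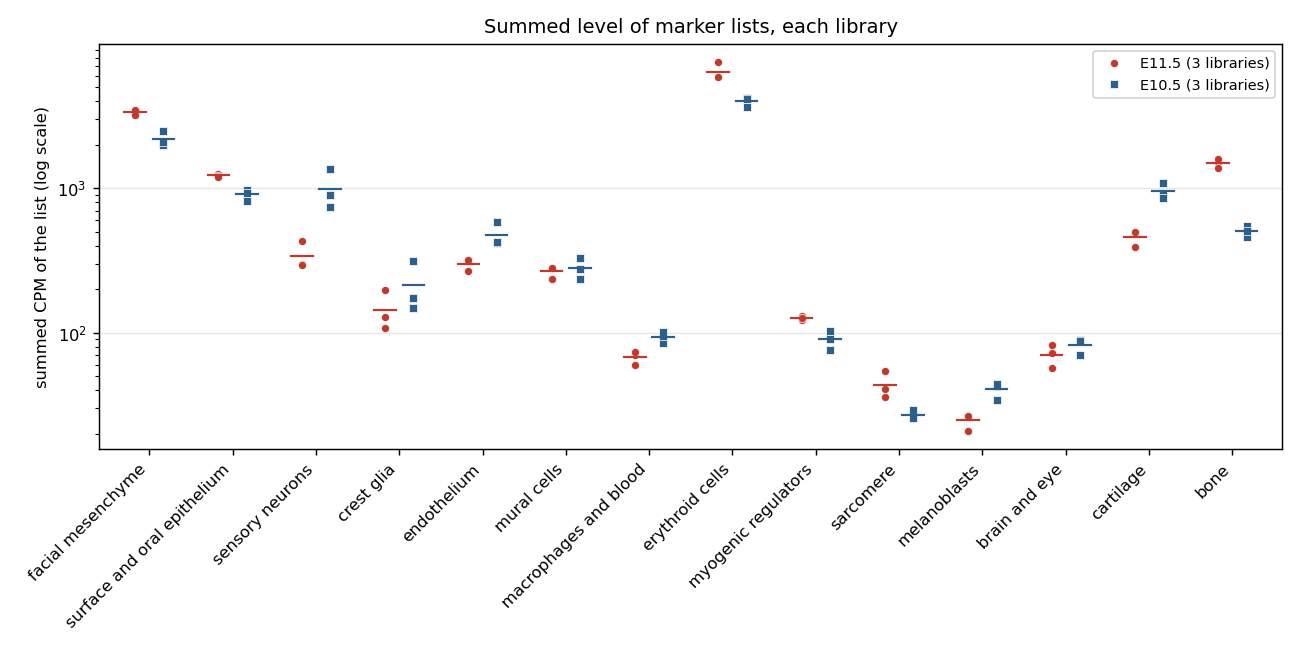
Summed CPM of each list of cell type markers in every library on a log scale, with E11.5 libraries as circles left of E10.5 libraries as squares and means as lines. Sums for sensory neurons, endothelium, macrophages and cartilage are lower in all E11.5 libraries, 292.3 to 430.6 CPM against 736.6 to 1352 CPM for neurons, and sums for facial mesenchyme, surface epithelium, erythroid cells and bone are higher.

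Most endothelial markers and some macrophage markers fell. Of 19 endothelial markers 13 fell (68.4%, median -0.745) and 6 were not called, with a sum of 266.8 to 320.4 CPM at E11.5, against 420.1 to 583.5 CPM at E10.5. Plvap, a protein of vessel fenestrae, had 20.5, 15.4 and 21.3 CPM at E11.5, against 34.7, 34.2 and 52.2 CPM at E10.5 (log2 fold change -1.08, SE 0.19, edgeR adjusted p = 0.000993). Emcn, a sialomucin of veins and capillaries, had 23.4, 22.6 and 23.3 CPM at E11.5, against 37.3, 38.4 and 40.4 CPM at E10.5. Pecam1, a pan-endothelial adhesion molecule, was not called, with 38.3, 32.5 and 42.1 CPM at E11.5 and 36.9, 39.6 and 45.2 CPM at E10.5. Of 14 macrophage markers 4 fell (28.6%) and 10 were not called. Cx3cr1, a fractalkine receptor of early macrophages, fell to 5.79 ± 0.647 CPM at E11.5, against 10.6 ± 0.536 CPM at E10.5 (SD, n = 3 each).

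Several globins rose, adult Hbb-bt and embryonic Hbb-y among them. Hbb-bt, an adult beta globin, was at 97.4, 110.5 and 93.2 CPM at E11.5, against 15.9, 14.9 and 14.3 CPM at E10.5 (log2 fold change 2.74, SE 0.26, edgeR adjusted p = 7.47e-06). The embryonic globin Hbb-y was at 3452, 4579 and 3355 CPM at E11.5, against 1651, 1874 and 1552 CPM at E10.5, and the earlier embryonic globin Hbb-bh1 was not called, at 1069.7, 1209 and 1147 CPM at E11.5 and 1135, 1365 and 1152 CPM at E10.5. The adult genes Hbb-bt and Hbb-bs are near-identical, so how reads were divided between them is uncertain. Of 13 erythroid genes 4 rose (30.8%), 2 without E10.5 replicate 1, E10.5 replicate 2 or E11.5 replicate 2. Hba-a1 and Hbb-bs lost the call in each of those fits, and Hba-a1 also without E11.5 replicate 3. With haemoglobin and mitochondrial genes left out, 0 members of the list rose. The erythroid sum was 5882 to 7415 CPM at E11.5, against 3656 to 4192 CPM at E10.5, and the amount of blood left in each dissection was not measured. Counts of genes that rose or fell were 2236 and 2376 with haemoglobin and mitochondrial genes left out.

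Muscle regulators moved in both directions. Of 13 myogenic genes 4 rose and 2 fell (30.8% and 15.4%, against 12.2% and 12.9% of all genes). The 2 became 1 without E11.5 replicate 3, E11.5 replicate 1 or E10.5 replicate 3. Myod1, which commits cells to muscle, had 2.35, 2.04 and 2.58 CPM at E11.5, against 0.454, 0.518 and 0.362 CPM at E10.5 (log2 fold change 2.38, SE 0.21, edgeR adjusted p = 4.81e-06), and its successor Myog averaged 4.64 ± 1.58 CPM at E11.5 and 1.45 ± 0.0341 CPM at E10.5 (SD, n = 3 each). Pax3, a factor of muscle precursors and of neural crest, rose to 75.0, 78.4 and 71.4 CPM at E11.5, against 33.3, 29.8 and 15.4 CPM at E10.5. Msc, a repressor of the same factor class in muscle precursors, fell to 1.07, 0.966 and 0.782 CPM at E11.5, against 1.89, 2.85 and 3.13 CPM at E10.5 (log2 fold change -1.48, SE 0.32, edgeR adjusted p = 0.00399). Myf5 also fell (log2 fold change -1.89, edgeR adjusted p = 0.0229), a call lost without E10.5 replicate 3 (0.163), E11.5 replicate 1 (0.0676), replicate 2 (0.0632) or replicate 3 (0.0769). Myod1 and Myog went on to means of 9.42 and 21.0 CPM at E12.5. Crest glia markers gave 1 member that rose and 3 that fell among 9 (11.1% and 33.3%). The 3 became 1 without E11.5 replicate 3, E11.5 replicate 1 or E10.5 replicate 2. Fabp7, a glial lipid carrier, was not called and varied within stages, with 12.6, 91.9 and 10.2 CPM at E11.5 and 34.3, 124 and 22.5 CPM at E10.5, replicate 2 being highest in both.

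Among the 15 largest rises of protein-coding genes with at least 5 CPM at E11.5 and no overlap were Avpr1a, the vasopressin receptor, Chodl, a membrane protein with a lectin domain, Gabrp, a subunit of the GABA-A receptor, and Cpxm2, a member of the carboxypeptidase family. Gabrp was at 35.4, 37.5 and 34.0 CPM at E11.5, against 1.57, 0.887 and 0.625 CPM at E10.5 (log2 fold change 5.12, SE 0.29, edgeR adjusted p = 1.62e-07), and its mean was 2.65 CPM at E12.5 and 20.3 CPM at E14.5. Avpr1a had 13.7, 20.8 and 6.70 CPM at E11.5 and at most 0.164 CPM in an E10.5 library. Chodl spread widely at E11.5, with 8.62, 18.8 and 4.05 CPM, against at most 0.263 CPM in an E10.5 library. Cbln4, a secreted synapse organizer, had 715 counts over the E11.5 libraries and 3 over the E10.5 libraries, a ratio of 237 with a 95% exact interval of 80.9 to 1150.

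By difference in mean CPM, which favours long and abundant transcripts, the largest rises included secreted signals and chromatin genes. Ptn, the growth factor pleiotrophin, was at 957, 1113 and 932 CPM at E11.5, against 343, 363 and 221 CPM at E10.5 (log2 fold change 1.70, SE 0.17, edgeR adjusted p = 1.01e-05). Cxcl14, a chemokine of epithelia, was at 466, 554 and 341 CPM at E11.5, against 54.8, 25.5 and 20.6 CPM at E10.5, and its mean was 34.4 CPM at E12.5. Chd3, a nucleosome remodeller, rose to 702 ± 72.5 CPM at E11.5, against 253 ± 23.0 CPM at E10.5, and Trps1, a GATA-type repressor whose human gene is mutated in a syndrome of face, hair and fingers, rose to 355 ± 83.0 CPM at E11.5, against 89.1 ± 13.4 CPM at E10.5 (SD, n = 3 each). Among the largest falls by this measure, beside glycolytic, nucleolar and chaperone genes, were Mest, an imprinted gene expressed from the paternal allele, and Eif5a, a translation factor. Mest was at 573, 484 and 632 CPM at E11.5, against 1038, 1029 and 1232 CPM at E10.5, and Peg3, another paternally expressed gene, was at 396, 344 and 375 CPM at E11.5, against 737, 612 and 882 CPM at E10.5. Of 24 imprinted genes 8 fell and 3 rose (33.3% and 12.5%). Cdkn1c, expressed from the maternal allele, was among those that rose, with a log2 fold change of 0.46, and Igf2 was not called, at 50.7, 44.0 and 42.3 CPM at E11.5 and 39.4, 29.1 and 54.7 CPM at E10.5.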

How the data were processed

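Poly-A RNA of mouse maxillary prominence was sequenced from libraries whose kit keeps no strand, per the labels' protocols. Each deposited file gives the authors' raw counts for Ensembl genes, with no normalization, and FastQC, STAR 2.7.3a, HTSeq 0.12.4 and mm10 are named in the submitters' processing notes, without role or order. Which annotation, strand option and filters were used is not given in the sources used here, so overlapping and antisense genes are uncertain. Of 53801 identifiers, 53706 matched GENCODE for the same assembly and 95 did not. The 5 closing entries of each file, 14.3% to 16.7% of listed alignments in the 6 libraries, stayed out of library sizes and tests.

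The analysis used edgeR 4.0.16 in R 4.3.3: filterByExpr with a minimum count of 10 (18365 genes), TMM scaling, and a quasi-likelihood fit of 1 mean per stage to all 12 libraries (8 residual degrees of freedom, biological coefficient of variation 0.142). E11.5 minus E10.5 was tested with Benjamini-Hochberg adjustment at 0.05. In simulated data the procedure recovered 25.4% of 71 genes changed 1.5-fold, 64.4% of 59 changed 2-fold and 91.7% of 48 changed 4-fold. Of its calls there, 1.96% were false. Each gene was drawn independently there and few were changed, whereas 25.1% of genes were called in the real data. Those rates are therefore not error rates of this comparison. A gene that was not called may thus still differ by a small amount. SE is the size of the log2 fold change divided by the root of F. Depth is given with the results, reads carry no molecular identifiers, and counting error alone is covered by intervals and floors. All libraries differed by more than sampling noise (chi-square per degree of freedom at least 4.69 within these stages).

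The 75 gene lists, their members and the stages compared were chosen with earlier results of these data known. Named genes came from a rule: the 15 largest rises and falls of called protein-coding genes that reach 5 CPM in either stage without overlap of the libraries, the 12 largest rises and falls in mean CPM, and from each list up to 4 called members per direction with at least 2 CPM and its 3 most abundant members. Not all are named, and further list members and Chrna6 were named after their values were seen. Alternatives were other scaling, filters and tests (DESeq2 1.42.0, limma-voom in limma 3.58.1), the 2 stages alone, a 2-fold minimum, a replicate block, haemoglobin and mitochondrial genes left out, covariates for the share outside genes and the Y-linked level, and each library left out in turn.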

Additional observations from a re-analysis of the deposited data

How the results depend on the processing

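Direction was examined for 677 genes, the called list members and the genes the naming rule picked, of which 567 were called. The rest of the 4615 called genes were not examined. Of the 677, 24 changed sign in 40 values, none called in either fit. Of those named here, Pecam1 moved to 0.0014 with the share outside genes as covariate, and with single libraries left out Fabp7 ranged from -2.40 to 0.45 and Hbb-bh1 from -0.137 to 0.0157 (log2 fold changes). The 2238 genes that rose, the 2377 that fell, and the 904 and 732 at least 2-fold stayed within 1.5 times of those counts under other scaling, filters, tools and covariates. Exceptions were a test against a minimum change of 2-fold, which left 350 that rose and 175 that fell, and leaving out E11.5 replicate 1 or 2, which left 1551 and 1486 that fell. With single libraries left out, 1659 to 2016 rose and 1486 to 2042 fell, and at least 2-fold 756 to 902 rose and 565 to 808 fell. Replicate numbers did not pair the libraries: same-numbered deviations correlated at 0.015, 0.0788 and 0.0862, although each library correlated best with its own number, a hint from the data only. With a replicate block 2291 rose and 2396 fell. With the share outside genes as covariate in the 6 libraries, 2954 rose and 2794 fell. Ribosomal protein genes that fell then numbered 37, against 2 without the covariate. Scaling moved the median of all genes by at most 0.0323 on the log2 scale. Of 371 called genes the naming rule picked, 292 kept the call in every alternative except the 2-fold minimum, and 79 lost it in some. The cause of these shifts was not tested. Genes with few counts, such as Sox1 and Six6, carry wide intervals at this depth.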
